A study of Homo sapiens with 60 samples.

Results

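The roots Polygalae Radix and Aucklandiae Radix were compared at their high doses in HepG2, an established line from a human liver cancer that still makes many hepatocyte proteins. The libraries were chosen by their titles and make up 6 of the 60 RNA-seq libraries in the series. In 3 of them the cells had received a water extract of Polygalae Radix at 450 µg/mL for 24 h, and in the other 3 a water extract of Aucklandiae Radix at 500 µg/mL for 24 h. Both groups carry codes of the same set (set 4), whose meaning is not stated. The doses are not equal, because the design text lowers the top dose of extracts that were more toxic to the cells, so every difference given here is between 450 and 500 µg/mL. Beside these 2 groups stand 3 vehicle libraries of a different code set, given DMSO at 0.1% per the labels and at 2% per the design text. The lower doses of the same extracts, 3 libraries each, were 90 and 18 µg/mL for Polygalae Radix and 100 and 20 µg/mL for Aucklandiae Radix. HepG2 is 1 tumour line grown alone, and each extract is a mixture whose content was not analysed here.

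Several regulators known from liver cells bear on the genes described. NRF2 is a transcription factor that KEAP1 keeps low until reactive compounds modify KEAP1; it then binds antioxidant response elements near genes for glutathione and NADPH supply and for quinone and carbonyl reduction. The aryl hydrocarbon receptor, AHR, is switched on by flat aromatic ligands and drives CYP1A1. SREBP2 turns on cholesterol synthesis and uptake genes when membrane sterol is low, and its relative SREBP1 acts on fatty acid synthesis. ATF6 and XBP1 raise chaperones of the endoplasmic reticulum when unfolded proteins gather there.

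Total counts were 21.57 to 29.71 M per library with Polygalae Radix and 22.44 to 26.1 M with Aucklandiae Radix. All 10 hepatocyte markers were detected, among them ALB, which had 6134 ± 79.1 CPM (counts scaled to the library's size after TMM; SD, n = 3) with Polygalae Radix and 6429 ± 95.3 CPM with Aucklandiae Radix. AFP, APOA2 and HNF4A were higher with Polygalae Radix (log2 0.37, 0.67 and 0.27; edgeR adjusted p = 0.0096, 0.035 and 0.0034). The call of APOA2 was lost without Aucklandiae Radix replicate 1 or 3 and without Polygalae Radix replicate 2 or 3 (edgeR adjusted p = 0.083 to 0.14). Markers of other cell types were low or absent where they define the type: COL1A2 and DCN (fibroblasts), KDR and CLEC14A (endothelium), PTPRC, CD3E and MARCO (leukocytes) and CFTR (bile duct) were at 0 in all 6 libraries. The summed fibroblast list (2 of 10 markers at 1 CPM or more) was 53.4 to 56.0 CPM with Polygalae Radix and 59.8 to 63.6 CPM with Aucklandiae Radix. The bile duct list (5 of 7) summed to 1065 to 1163 and 1225 to 1325 CPM, and the leukocyte list (3 of 10, mostly CD68, CD14 and LYZ) to 973 to 1023 and 929 to 972 CPM. Structured RNA such as small nuclear and ribosomal RNA took 2.89% to 2.90% of counts with Polygalae Radix and 3.05% to 3.41% with Aucklandiae Radix; these ranges do not overlap, and their part in the results was not tested beyond a fit with this share as a covariate. Mitochondrial mRNA overlapped between the groups, at 9.31% to 11.2% and 9.57% to 9.98%. Libraries that stand apart from their group include vehicle replicate 1, with 16.1% mitochondrial mRNA and 3.84% structured RNA. The other vehicle libraries had 13.0% and 13.1%, and 3.46% and 3.43%. At the low doses Aucklandiae Radix replicate 1 had 14.5% mitochondrial mRNA against 8.41% and 9.18%. Polygalae Radix replicate 2 at the low dose had 2.49% structured RNA against 2.73% and 2.74%. Its mitochondrial mRNA, 7.06%, was as far from replicate 3 (9.05%) as that of replicate 1 (11.2%). At the medium doses Aucklandiae Radix replicate 1 stood apart too, with 16.6% mitochondrial mRNA and 3.66% structured RNA. Its fellow libraries had 8.91% and 10.2%, and 2.73% and 2.88%. Polygalae Radix replicate 2 at the medium dose had 3.52% structured RNA against 3.01% and 2.89%. None of these libraries is among the 6 high dose libraries. Among those 6, Polygalae Radix replicate 2 had the highest mitochondrial mRNA, 11.2% against 9.31% and 9.81% in its group. In bulk RNA, fewer cells of a kind and less RNA per cell cannot be told apart.

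Of 16517 genes tested, 2737 (16.6%) differed between the extracts at an adjusted p under 0.05, by the quasi-likelihood test of edgeR, adjusted after Benjamini and Hochberg over all genes. With Polygalae Radix 1246 genes (7.54%) were higher and 1491 (9.03%) lower than with Aucklandiae Radix, and the median log2 difference of all genes was 0.01. Most differences were small: only 65 genes (0.394%) were at least 2-fold higher and 85 (0.515%) at least 2-fold lower. The 3 libraries of one extract lay entirely above those of the other for 3222 genes (19.5%) with Polygalae Radix on top and for 3196 (19.3%) with Aucklandiae Radix on top. A log2 difference is hereafter always Polygalae Radix minus Aucklandiae Radix with its standard error from the fit, and library values are CPM in the order of the replicate number. CPM is not scaled by length, so levels are compared within a gene only.

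The gene that stood highest with Polygalae Radix was CYP1A1 (ENSG00000140465, GRCh38 chr15:74719542-74725610, minus strand), a cytochrome P450 that oxidises polycyclic aromatic compounds. Its libraries held 58.7, 67.0 and 60.5 CPM with Polygalae Radix, 13.9, 18.1 and 17.0 CPM with Aucklandiae Radix and 7.15, 7.20 and 7.24 CPM with the vehicle. All 3 groups are apart, and the extracts differed 3.81-fold (log2 1.93 ± 0.082, edgeR adjusted p = 1.6e-23). Of the 7 tested genes of the AHR list, 4 were higher with Polygalae Radix and 1 lower, beside 7.54% and 9.03% of all genes. The median log2 difference in the list was 0.35. Higher were also NFE2L2, which encodes NRF2 (219, 238 and 232 against 167, 170 and 169 CPM; log2 0.45 ± 0.067, edgeR adjusted p = 1.5e-06), and ALDH3A1, an aldehyde dehydrogenase near the detection limit (0.749, 0.853 and 1.53 against 0.301, 0.343 and 0.486 CPM). AHR itself, named after its values were seen, had a log2 difference of 0.33 ± 0.072 (edgeR adjusted p = 0.00073). The member that was lower is NQO1, a quinone reductase which the NRF2 list also holds. TIPARP and AHRR, named after their values were seen as the members that did not pass, had log2 differences of 0.14 and 0.35. CYP1A2, CYP1B1, UGT1A6 and LRAT had too few counts to be tested.

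The other leading genes on this side differed by about 2-fold. MBL2, the mannose-binding lectin of complement, had 16, 17.5 and 17.1 CPM with Polygalae Radix, 8.14, 6.82 and 6.65 CPM with Aucklandiae Radix and 11.3 to 14.4 CPM with the vehicle (log2 1.22 ± 0.096, edgeR adjusted p = 4.9e-14). BMF, a BH3-only protein that promotes apoptosis, had 25.8, 22.2 and 21.4 against 11.9, 9.39 and 9.27 CPM, around vehicle values of 13.7 to 16.2 CPM (log2 1.18 ± 0.097, edgeR adjusted p = 1.9e-13). For both genes the vehicle libraries lay between the extracts, above Aucklandiae Radix and below Polygalae Radix. GDPD3, a phospholipid-cleaving phosphodiesterase (12.7, 12.9 and 12.6 against 5.88, 5.53 and 5.38 CPM), SULT1C2, a sulfotransferase (11.6, 11.6 and 11.1 against 5.20, 5.40 and 4.82 CPM), and LIPG, endothelial lipase (12.2, 12.0 and 11.9 against 6.25, 4.80 and 5.23 CPM), showed the same order, with vehicle means of 7.49, 7.26 and 8.89 CPM. FABP1, the liver fatty acid binding protein, had 104, 86.1 and 99.0 against 52.6, 41.7 and 40.0 CPM. In this gene the Polygalae Radix libraries overlapped the vehicle (82.4 to 92.2 CPM) and only those of Aucklandiae Radix lay apart from it. CCL20, a chemokine, had 18.7, 17.4 and 18.1 against 8.47, 9.18 and 8.59 CPM. ANGPTL8, an inhibitor of lipoprotein lipase, showed the reverse pattern, with 13.4, 12.2 and 12.9 against 6.78, 6.09 and 6.17 CPM and a vehicle at 5.91 to 6.54 CPM. It shares exonic sequence with DOCK6, and since the strand setting of the counting is not given in the sources used here, its value is uncertain.

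**Figure D1:**
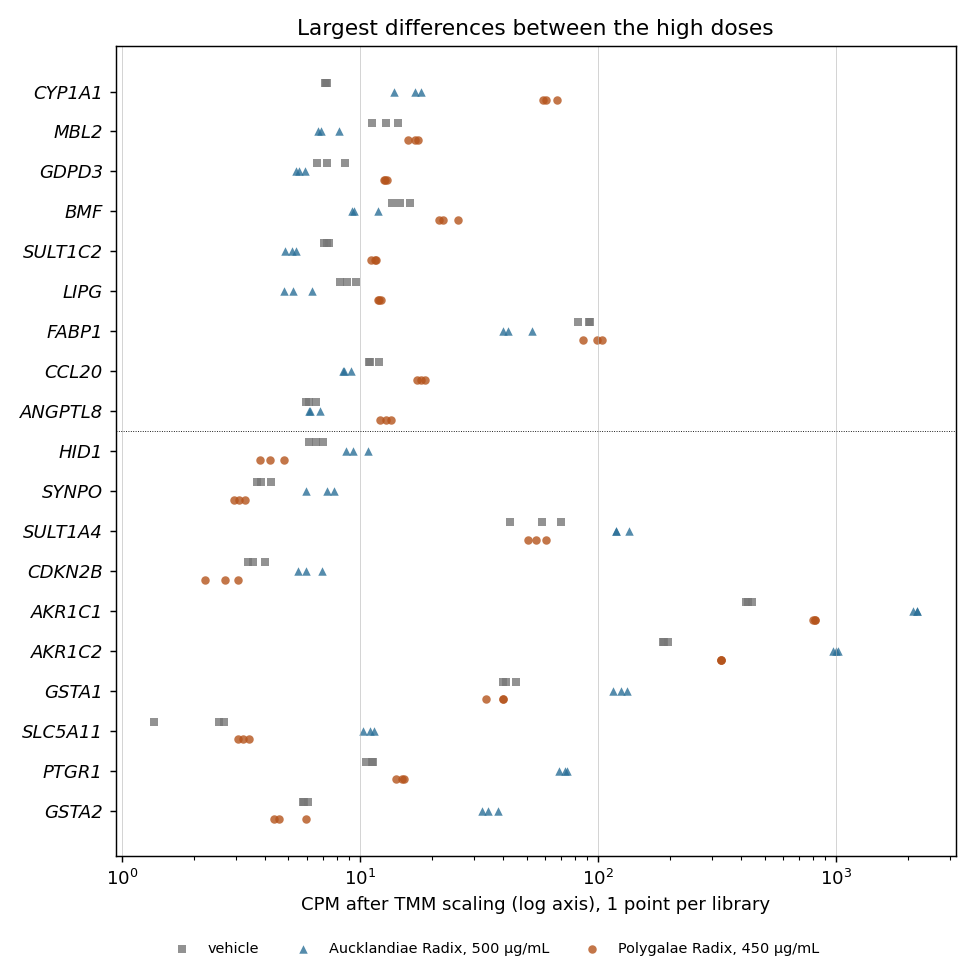
CPM after TMM scaling (log axis) of 9 of the 10 genes highest (top) and the 10 lowest (bottom) with Polygalae Radix against Aucklandiae Radix, 1 point per library, with 3 libraries a group. CYP1A1 was at 58.7 to 67.0 CPM with Polygalae Radix, and the AKR1C, GSTA and PTGR1 points of Aucklandiae Radix sit to the right of both other groups.

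Among the 10 genes that stood lowest with Polygalae Radix, 5 encode reductases or glutathione transferases: GSTA2, GSTA1, PTGR1, AKR1C2 and AKR1C1. In these 5 every library of Aucklandiae Radix lay above every vehicle library. GSTA2 (ENSG00000244067, GRCh38 chr6:52750089-52763569, minus strand), a glutathione transferase, had 4.34, 4.55 and 5.90 CPM with Polygalae Radix, 34.5, 38.1 and 32.6 CPM with Aucklandiae Radix and 5.79, 6.03 and 5.75 CPM with the vehicle. Polygalae Radix overlapped the vehicle here, and the extracts differed 7.17-fold (log2 -2.84 ± 0.17, edgeR adjusted p = 4.4e-18). GSTA1, its neighbour and close copy, had 33.9, 39.7 and 39.7 against 125, 132 and 116 CPM and 39.9 to 45.2 CPM with the vehicle (log2 -1.72 ± 0.14). PTGR1 (ENSG00000106853, GRCh38 chr9:111549722-111599893, minus strand), a reductase of prostaglandins and other enones, had 15.3, 15.0 and 14.2 against 72.7, 73.7 and 68.6 CPM and 10.6 to 11.3 CPM with the vehicle (log2 -2.27 ± 0.084, edgeR adjusted p = 1.3e-25). AKR1C2 and AKR1C1, aldo-keto reductases of steroids and aldehydes, stood above the vehicle with both extracts and higher with Aucklandiae Radix. AKR1C2 had 328, 328 and 328 against 1002, 1018 and 967 CPM with a vehicle of 188 to 197 CPM, and AKR1C1 had 811, 801 and 812 against 2191, 2191 and 2100 CPM with a vehicle of 416 to 444 CPM. Their log2 differences were -1.60 ± 0.072 and -1.42 ± 0.061. GSTA1 with GSTA2, and the AKR1C genes among themselves, are similar enough in sequence that reads may be split between them, so the sizes for single genes are uncertain.

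SLC5A11, a sodium-coupled inositol transporter, had 3.06, 3.41 and 3.24 against 11.5, 10.3 and 11 CPM (log2 -1.75 ± 0.15). CDKN2B, an inhibitor of the G1 kinases CDK4 and CDK6, was at 2.72, 3.06 and 2.23 against 5.50, 6.91 and 5.90 CPM, and the vehicle (3.39 to 3.98 CPM) lay between. SYNPO, an actin-binding protein, had 3.28, 2.95 and 3.11 against 7.27, 7.76 and 5.94 CPM, and HID1 4.77, 4.20 and 3.80 against 9.30, 10.8 and 8.71 CPM. SULT1A4, a phenol sulfotransferase, had 50.7, 60.4 and 54.8 against 119, 135 and 119 CPM; it has a near-identical copy and overlaps a readthrough gene, so this value too is uncertain. None of the 20 leading genes lost its call under any alternative setting tried.

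Across the NRF2 list without the aldo-keto reductases, 20 of the 23 tested genes were lower with Polygalae Radix and 0 higher, beside 9.03% lower among all genes, and the median log2 difference was -0.44. ABCC3, an efflux pump for conjugates, had 69.5, 71.6 and 65.4 against 149, 148 and 144 CPM (log2 -1.09 ± 0.054, edgeR adjusted p = 2.8e-21). EPHX1, an epoxide hydrolase, had 110, 118 and 113 against 194, 210 and 199 CPM, and TKT, a transketolase of the pentose phosphate pathway, 362, 363 and 384 against 495, 500 and 495 CPM. NQO1 had 489, 495 and 506 against 687, 695 and 676 CPM (log2 -0.47 ± 0.044, edgeR adjusted p = 1.5e-11), both above the 333 to 345 CPM of the vehicle. HMOX1, which opens the heme ring, had 67.2, 67.3 and 67.7 against 104, 114 and 104 CPM (log2 -0.67 ± 0.064). In 21 of the 23 genes no Polygalae Radix library reached an Aucklandiae Radix library, beside 19.3% of all genes. The genes without a call, FTL, OSGIN1 and SLC7A11, were named after their values were seen, and had log2 differences of -0.28, -0.10 and -0.12. FTL was called lower with no filter on low counts and with the 6 libraries fitted alone (edgeR adjusted p = 0.00021 and 0.0034). OSGIN1 had 106, 105 and 104 against 118, 116 and 104 CPM with 45.4 to 50.9 CPM in the vehicle, and its log2 differences from the vehicle were 1.12 and 1.22.

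Set against the vehicle, a comparison that crosses code sets and whose 3 libraries both extracts share, 15 of the 23 NRF2 genes were higher with Polygalae Radix and 23 of 23 with Aucklandiae Radix, beside 10.2% and 13.6% of all genes. The median log2 differences from the vehicle were 0.32 and 0.84. Without vehicle replicate 1 these counts were 13 (with 1 lower) and 23, and the medians 0.35 and 0.87. Among the 12 tested genes of the aldo-keto reductase list, 5 were lower with Polygalae Radix than with Aucklandiae Radix, beside 9.03% of all genes. These were PTGR1, AKR1C1, AKR1C2, AKR1B10 and, named after its value was seen, AKR1C3. AKR1B10, a reductase of retinal and other aldehydes, had 110, 106 and 117 against 228, 229 and 228 CPM and 34.6 to 40.3 CPM with the vehicle (log2 -1.04 ± 0.051, edgeR adjusted p = 2.6e-21). The other 7 had log2 differences of -0.56 to 0.41 and did not pass. In the glutathione transferase list 4 of 13 were lower and 0 higher: GSTA2, GSTA1, GSTA4 (log2 -0.52 ± 0.13) and MGST1 (-0.50 ± 0.15). MGST1 did not pass without Polygalae Radix replicate 1 (log2 -0.46, edgeR adjusted p = 0.062) or without Aucklandiae Radix replicate 2 (log2 -0.44, edgeR adjusted p = 0.066). When the 6 libraries were fitted alone, 8 reductase and 10 transferase genes were lower, and with no filter on low counts 7 transferase genes.

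Promoters of NRF2 genes were searched for the antioxidant response element, since members of the list moved together. The core TGACNNNGC, read on both strands in the 250 bases before the RefSeq start (GRCh38.p14), was found in 4 of the 15 list promoters at hand (GCLM, TXNRD1, PGD and ABCB6) and in 12.2% of the 11227 promoters of tested genes. Other lists held it as well, in 7 of 18 lysosome and 3 of 7 metallothionein and zinc promoters. It was in 2 of 11 glutathione transferase, 3 of 18 chaperone, 1 of 10 aldo-keto reductase, 1 of 16 hypoxia and 0 of 18 cholesterol promoters. Shown for their matches are the promoters of GCLM, the modifier subunit of glutathione synthesis, and TXNRD1, a thioredoxin reductase. Capitals mark the core, which in GCLM lies on the opposite strand, 34 to 26 bases before the start, and in TXNRD1 on the gene's strand, 99 to 91 bases before it; no other motif searched overlaps either.
GCLM, chr1:93909431-93909489, minus strand: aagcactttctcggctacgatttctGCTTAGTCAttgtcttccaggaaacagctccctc
TXNRD1, chr12:104215655-104215713, plus strand: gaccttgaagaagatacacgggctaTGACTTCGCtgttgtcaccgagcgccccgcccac
GCLM had 45.1, 47.0 and 46.0 CPM with Polygalae Radix against 64.1, 73.9 and 68.3 CPM (log2 -0.58 ± 0.076), and TXNRD1 256, 244 and 246 against 308, 317 and 312 CPM (log2 -0.33 ± 0.058). A match describes letters only, and both genes were picked for their match after the values were seen.

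**Figure D2:**
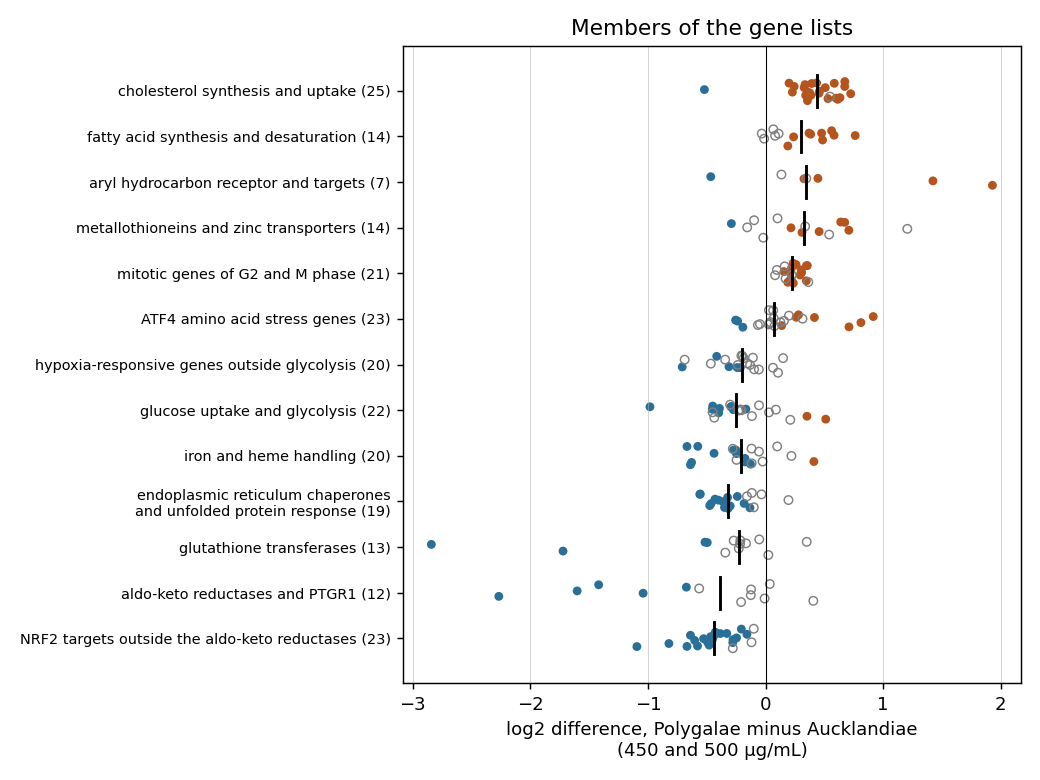
Log2 difference of each tested member of 13 gene lists (number tested in brackets); filled points passed the edgeR test, in orange where higher and in blue where lower with Polygalae Radix, open points did not, and the bar is the list's median. Cholesterol genes lie right of 0 at a median of 0.43 and NRF2 genes left of 0 at a median of -0.44.

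Genes of cholesterol synthesis and uptake were higher with Polygalae Radix in 23 of 25 members, with 1 lower, beside 7.54% higher among all genes, and their median log2 difference was 0.43. HMGCS1, which makes the HMG-CoA that feeds the pathway, had 408, 382 and 382 CPM with Polygalae Radix against 244, 234 and 232 CPM with Aucklandiae Radix (log2 0.72 ± 0.054, edgeR adjusted p = 8.3e-15). FDPS, the farnesyl diphosphate synthase, had 220, 221 and 215 against 144, 136 and 131 CPM. SQLE, the squalene epoxidase, had 371, 358 and 368 against 284, 272 and 280 CPM. In 23 genes the libraries of the extracts did not overlap with Polygalae Radix on top, beside 19.5% of all genes. The exceptions, named after their values were seen, were PMVK, which was lower (log2 -0.52 ± 0.15, edgeR adjusted p = 0.0089; 0.12 without Polygalae Radix replicate 2 and 0.087 without Aucklandiae Radix replicate 3), and INSIG1, which stayed under 1 CPM in all 6 libraries.

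The extracts lay on opposite sides of the shared vehicle for many of these genes. With Polygalae Radix 15 of 25 were higher than the vehicle and 0 lower (median log2 0.23), while with Aucklandiae Radix 1 was higher and 17 lower (median log2 -0.22), beside 10.2% higher and 9.94% lower among all genes with Polygalae Radix and 13.6% and 12.5% with Aucklandiae Radix. HMGCS1 had 397, 364 and 352 CPM in the vehicle libraries, which Polygalae Radix overlapped and Aucklandiae Radix did not. Without vehicle replicate 1, 10 genes were higher with Polygalae Radix, and 13 lower and 1 higher with Aucklandiae Radix, at medians of 0.20 and -0.22.

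Fatty acid genes moved likewise, with 9 of 14 higher with Polygalae Radix and 0 lower, beside 7.54% and 9.03% of all genes. Their list had a median log2 difference of 0.30. ELOVL6, an elongase of saturated fatty acids, had 58.6, 63.5 and 62.2 against 37.7, 34.1 and 36.7 CPM (log2 0.76 ± 0.045, edgeR adjusted p = 3.6e-18). FADS2, a desaturase, had 339, 315 and 324 against 221, 210 and 221 CPM, ACSS2, which makes acetyl-CoA from acetate, 172, 157 and 159 against 119, 116 and 117 CPM, and SREBF1, the gene of SREBP1, 135, 139 and 138 against 96.4, 98.4 and 99.1 CPM. FASN, the fatty acid synthase, had 2551, 2505 and 2590 against 2329, 2315 and 2433 CPM and did not pass (log2 0.11 ± 0.11, edgeR adjusted p = 0.57). Against the vehicle, 3 of 14 were higher with Polygalae Radix and 10 of 14 lower with Aucklandiae Radix, beside 10.2% higher and 12.5% lower among all genes. Without vehicle replicate 1, 2 were higher and 1 lower with Polygalae Radix, and 9 lower with Aucklandiae Radix.

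Among genes of fatty acid oxidation and PPARA the direction was mixed, with 3 of 17 higher and 6 lower, beside 7.54% and 9.03% of all genes. CPT1A, the gate of mitochondrial fatty acid import, had 68.0, 62.5 and 60.7 against 112, 109 and 117 CPM, with 41.3 to 42.9 CPM in the vehicle (log2 -0.82 ± 0.093, edgeR adjusted p = 2.0e-09). HADHA, ACADVL and SLC25A20, which act in or supply the same oxidation, had log2 differences of -0.39, -0.51 and -0.51. FABP1, which binds the fatty acids in the cytosol, belongs to the same list and was higher.

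**Figure D3:**
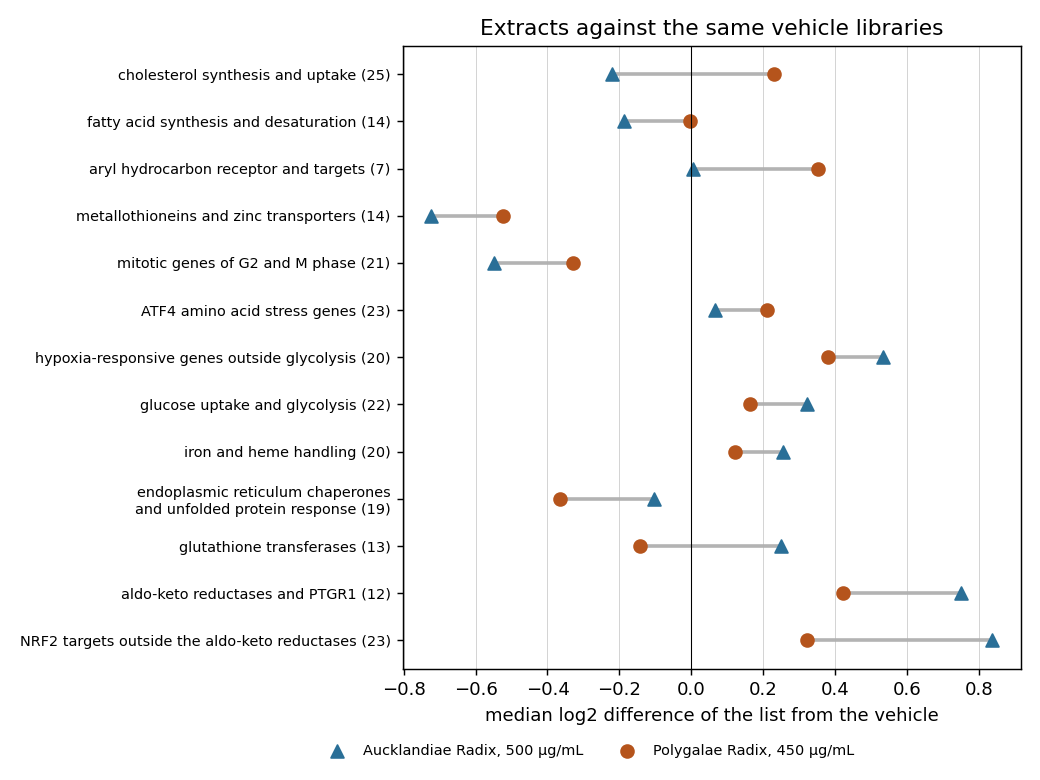
Median log2 difference of each list from the vehicle, with circles for Polygalae Radix and triangles for Aucklandiae Radix; both use the same 3 vehicle libraries, which belong to another code set. The cholesterol medians are 0.23 and -0.22, on either side of 0, and the NRF2 medians 0.32 and 0.84, both above it.

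Chaperones and folding enzymes of the endoplasmic reticulum were lower with Polygalae Radix, in 14 of 19 list members with 0 higher. The shares of all genes were 9.03% lower and 7.54% higher, and the list's median log2 difference was -0.32. The count of lower members was 10 to 12 when single libraries of the 6 were left out, and 11 within code set 4 alone. PDIA4, a disulfide isomerase, had 330, 332 and 344 CPM against 501, 501 and 480 CPM with Aucklandiae Radix and 524 to 554 CPM with the vehicle (log2 -0.56 ± 0.044, edgeR adjusted p = 5.9e-14). HYOU1, a chaperone, had 256, 259 and 261 against 354, 358 and 357 CPM, and PDIA6, another isomerase, 385, 384 and 392 against 491, 493 and 463 CPM. HSPA5, the main Hsp70 of this compartment (BiP), had 696, 688 and 699 against 902, 884 and 887 CPM and 1120 to 1190 CPM with the vehicle (log2 -0.36 ± 0.040, edgeR adjusted p = 1.1e-09). For PDIA4, HYOU1 and HSPA5 the order was Polygalae Radix lowest, Aucklandiae Radix in between and the vehicle highest, with no overlap between the 3 groups. Against the vehicle, 14 members were lower and 2 higher with Polygalae Radix, and 8 lower and 1 higher with Aucklandiae Radix, beside 9.94% lower and 10.2% higher, and 12.5% lower and 13.6% higher, among all genes. Without vehicle replicate 1 these were 14 and 0, and 6 and 1. The members without a call, named after their values were seen, were CRELD2, XBP1, CALR, ATF6 and SEL1L, with log2 differences of -0.16, 0.20, -0.12, -0.10 and -0.03. XBP1 was higher with no filter on low counts, with the 6 libraries fitted alone and with GC slope and structured RNA share as covariates (edgeR adjusted p = 0.037, 0.00125 and 0.032). CRELD2 and CALR were lower when the 6 libraries were fitted alone (edgeR adjusted p = 0.022 and 0.029).

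Promoters of this list were read for the ER stress response element, a site at which ATF6 acts with NF-Y, in a search chosen after the values were seen. The element, CCAAT followed after 9 letters by CCACG and read on both strands, was found in 6 of the 18 list promoters at hand (HSPA5, HSP90B1, CALR, CANX, XBP1 and CRELD2) and in 14 of all 11227 (0.125%). Those of HSPA5, and of HSP90B1, an Hsp90 of the same compartment, are shown because both genes were lower; capitals mark the element, which HSP90B1 holds on each strand.
HSPA5, chr9:125241371-125241429, minus strand: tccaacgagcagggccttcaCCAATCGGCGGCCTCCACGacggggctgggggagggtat
HSP90B1, chr12:103930196-103930359, plus strand: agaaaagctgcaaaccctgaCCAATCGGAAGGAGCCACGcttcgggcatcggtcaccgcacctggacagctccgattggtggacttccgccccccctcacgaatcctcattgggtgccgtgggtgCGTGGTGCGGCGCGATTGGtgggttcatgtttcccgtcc
HSP90B1 had 585, 590 and 581 against 771, 700 and 726 CPM (log2 -0.32 ± 0.054). Of the 6 genes with the element, HSPA5, HSP90B1 and CANX, a lectin chaperone, were lower with Polygalae Radix and the other three did not pass. The call of CANX was lost when any library but Aucklandiae Radix replicate 2 was left out, with edgeR adjusted p of 0.069 to 0.13.

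Of the chaperones of the cytosol, 4 of 18 heat shock genes were lower and 1 higher, beside 9.03% and 7.54% of all genes. HSP90AA1 led the lower ones at 1305 ± 12 CPM against 1581 ± 87 CPM (SD, n = 3), a log2 difference of -0.28. Stress genes driven by ATF4, which responds to amino acid shortage and to several kinase signals, were higher in 7 of 23 and lower in 3. TRIB3, a pseudokinase of this response, had 222, 225 and 230 against 164, 169 and 174 CPM (log2 0.42 ± 0.059, edgeR adjusted p = 3.8e-07). NUPR1, a small stress protein, had 23.7, 26.2 and 26.4 against 12.6, 14.6 and 13.3 CPM (log2 0.92 ± 0.16), and ATF3, a transcription factor, 4.65, 4.84 and 5.55 against 2.79, 2.7 and 3.03 CPM (log2 0.81 ± 0.13). For NUPR1 and ATF3 the vehicle means, 13.1 and 3.11 CPM, were near those with Aucklandiae Radix. DDIT3, the gene of CHOP, did not pass (7.68, 8 and 7.52 against 6.10, 7.12 and 5.49 CPM; edgeR adjusted p = 0.14; 0.036 when the 6 libraries were fitted alone).

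Mitotic genes were higher with Polygalae Radix than Aucklandiae Radix in 15 of 21 and lower in 0, beside 7.54% and 9.03% of all genes. The median log2 difference of the list was 0.22, yet with both extracts the mitotic genes were lower than in the vehicle. PLK1, the mitotic kinase, had 220, 254 and 246 against 183, 196 and 187 CPM, with 334 to 338 CPM in the vehicle (log2 0.35 ± 0.056, edgeR adjusted p = 6.0e-06). BUB1, a checkpoint kinase, had 76.3, 80.3 and 83.4 against 67.8, 65.2 and 62.6 CPM and 94.2 to 106 CPM with the vehicle. BIRC5, a subunit of the chromosomal passenger complex, had 132, 124 and 130 against 106, 101 and 105 CPM, and CDK1 44.8, 49.2 and 45.7 against 37.6, 37.8 and 33.8 CPM. Against the vehicle 18 of 21 were lower with Polygalae Radix and 21 of 21 with Aucklandiae Radix, beside 9.94% and 12.5% of all genes. The medians were -0.33 and -0.55. Without vehicle replicate 1 the mitotic genes that were lower counted 16 and 21, beside 1118 and 1507 of all 16769 genes tested in that fit. Of the DNA replication genes 4 of 21 were higher and 1 lower, among them CDT1, which licenses origins, at 110 ± 2.6 against 86.9 ± 3.3 CPM (SD, n = 3).

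Iron and heme genes were lower with Polygalae Radix in 11 of 20 and higher in 1, beside 9.03% and 7.54% of all genes. Members of this list had a median log2 difference of -0.21. ALAS1, the first enzyme of heme synthesis, had 42.7, 45.3 and 48.3 against 65.7, 72.0 and 72.7 CPM, and the vehicle, at 41.0 to 42.9 CPM, was near Polygalae Radix (log2 -0.63 ± 0.049, edgeR adjusted p = 3.9e-14). FECH, which inserts the iron, had 25.2, 25.1 and 24.8 against 33.0, 34.9 and 33.9 CPM, and TFR2, a transferrin receptor, 49.2, 48.1 and 46.0 against 53.9, 59.1 and 57.2 CPM. HAMP, the iron hormone hepcidin and the member that was higher, was named after its value was seen (28.3, 29.6 and 28.9 against 22.6, 23.6 and 19.1 CPM; edgeR adjusted p = 0.049). It did not pass when any of the 6 libraries was left out, with edgeR adjusted p of 0.058 (without Aucklandiae Radix replicate 2) to 0.23 (without Aucklandiae Radix replicate 3). HMOX1 and the ferritin gene FTH1 stand in both this and the NRF2 list.

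Metallothioneins, small proteins that bind zinc, and zinc transporters were higher with Polygalae Radix in 6 of 14 members and lower in 1. All genes stood at 7.54% higher and 9.03% lower, and the list's median log2 difference was 0.32. MT1X had 15.6, 16 and 15.1 against 11.8, 12.3 and 9.98 CPM (log2 0.46 ± 0.14, edgeR adjusted p = 0.022) and MT1G 24.3, 23.8 and 26.5 against 14.3, 16.9 and 14.4 CPM (log2 0.71 ± 0.23, edgeR adjusted p = 0.028). Both were low beside the vehicle, which had 31.5 to 34.4 and 52.9 to 56.2 CPM. MT2A had 80.9, 98.1 and 91.7 against 61.8, 67.7 and 56.6 CPM without overlap and yet did not pass (log2 0.54 ± 0.23, edgeR adjusted p = 0.11). It was called higher with no filter on low counts, with the 6 libraries fitted alone and with GC slope and structured RNA share as covariates (edgeR adjusted p = 9.6e-14, 8.3e-05 and 0.035). With no filter the log2 difference of MT2A was still 0.54 in the same libraries. The small p there reflects another estimate of the spread, not a larger difference. The call of MT1X was lost without Polygalae Radix replicate 1 (edgeR adjusted p = 0.058) or 2 (0.070) and without Aucklandiae Radix replicate 3 (0.14). That of MT1G was lost without any 1 of the Polygalae Radix libraries (edgeR adjusted p = 0.051 to 0.087) and without Aucklandiae Radix replicate 1 or 3 (both 0.095). The count of higher members was 2 without Polygalae Radix replicate 1, 2 or 3 and 1 without Aucklandiae Radix replicate 3. Reads of MT1 genes may be split among close copies. SLC30A10, a transporter of manganese, had 15.9, 14.9 and 16.3 against 13.6, 12.1 and 12.3 CPM. SLC39A4, a zinc importer and the member that was lower, had 107, 102 and 103 against 120, 129 and 132 CPM.

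MTF1 acts on metallothionein genes through metal response elements, read here as TGCGCNC or TGCACNC on both strands. The short core is common: 32.8% of all promoters and 3 of 7 in this list (MT1X, MT2A and SLC30A1) hold it. The promoter of MT1X is shown because it holds 4 such cores, in capitals, within 134 bases.
MT1X, chr16:56682305-56682438, plus strand: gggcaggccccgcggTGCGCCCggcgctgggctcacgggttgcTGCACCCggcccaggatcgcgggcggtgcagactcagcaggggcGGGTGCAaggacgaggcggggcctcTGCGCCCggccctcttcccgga
It was chosen after the values were seen, and the match alone describes letters, not binding.

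Glucose uptake and glycolysis genes were lower with Polygalae Radix in 9 of 22 and higher in 2, beside 9.03% and 7.54% of all genes. Over the list the median log2 difference was -0.25. GPI, which turns glucose-6-phosphate into fructose-6-phosphate, had 312, 310 and 310 against 424, 422 and 428 CPM, with 299 to 320 CPM in the vehicle (log2 -0.45 ± 0.038, edgeR adjusted p = 4.7e-13). PKM, the pyruvate kinase, had 756, 751 and 753 against 1068, 1006 and 1010 CPM, and SLC2A1, the glucose transporter GLUT1, 595, 579 and 594 against 729, 728 and 705 CPM. ENO2, an enolase, went the other way with 63.8, 62.9 and 65.5 against 48.4, 43.6 and 42.9 CPM (log2 0.51 ± 0.055). Of the hypoxia genes outside glycolysis, 5 of 20 were lower and 0 higher, led by NDRG1, a stress-responsive gene with 69.1, 46.9 and 51.2 against 109, 80.0 and 84.5 CPM and 33.0 to 41.3 CPM in the vehicle (log2 -0.71 ± 0.099). Replicate 1 was the highest of NDRG1 in both extracts. The count of lower hypoxia genes was 8 without Polygalae Radix replicate 1, and 3 without Polygalae Radix replicate 2 or 3 or without Aucklandiae Radix replicate 1. That of higher ones, 0 by edgeR and by DESeq2 with 1 at an unadjusted p under 0.05, was 2 without Aucklandiae Radix replicate 1 and 1 without Polygalae Radix replicate 2. Nuclear genes of the respiratory chain were lower in 7 of 21, led by ATP5F1A of ATP synthase at 326 ± 2.6 against 384 ± 7.7 CPM (SD, n = 3), and without Polygalae Radix replicate 2 in 3. By edgeR 0 of 13 mitochondrially encoded mRNAs passed in either direction, with 0 at an unadjusted p under 0.05 and 0 by DESeq2. With no filter on low counts, and with the 6 libraries fitted alone, 1 was higher (MT-ATP8, edgeR adjusted p = 0.0048 and 0.021).

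Extracellular matrix and signalling genes were split. FN1, which encodes fibronectin and is a secreted product of hepatocytes, had 9003, 8799 and 9059 CPM against 15934, 15206 and 16487 CPM, with the vehicle in between (log2 -0.83 ± 0.051, edgeR adjusted p = 1.3e-17). CCN2, a target of YAP, was higher (157 ± 11 against 98.1 ± 1.5 CPM; SD, n = 3). In this list 4 of 17 were higher and 5 lower, beside 7.54% and 9.03% of all genes. The actin list had 3 of 16 higher and 4 lower, with MYH9, a nonmuscle myosin, at 561 ± 8.9 against 835 ± 26 CPM and FLNA, an actin crosslinker, at 807 ± 24 against 1193 ± 39 CPM (SD, n = 3). Without Polygalae Radix replicate 1 its counts were 2 and 2. NF-kB and chemokine genes were higher in 4 of 12 and lower in 0: beside CCL20 these were ICAM1, an adhesion molecule (131, 130 and 131 against 96.3, 104 and 96.0 CPM; log2 0.40 ± 0.042, edgeR adjusted p = 1.6e-10), TNFAIP3, a feedback inhibitor, and RELB, a subunit of the factor.

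Hepatocyte transcription factors were higher with Polygalae Radix in 6 of 18 and lower in 1, beside 7.54% and 9.03% of all genes. These factors had a median log2 difference of 0.20. FOXA1 was at 135 ± 5.5 against 102 ± 2.1 CPM, PROX1 at 165 ± 2.5 against 132 ± 4.6 CPM and HNF4A at 477 ± 6.5 against 396 ± 19 CPM (SD, n = 3). Plasma protein genes went both ways, with 3 of 23 higher and 5 lower: AHSG, or fetuin-A, was at 1730 ± 26 against 2409 ± 95 CPM, and ALB did not pass (log2 -0.07 ± 0.086, edgeR adjusted p = 0.68). Acute phase genes were higher in 3 of 13 and lower in 4, with complement C3 at 1928 ± 40 against 2323 ± 45 CPM. In the bile acid list 1 of 11 was higher and 4 lower, led by both subunits of the bile acid exporter of the basolateral membrane: SLC51A was at 3.50 ± 0.27 against 7.01 ± 0.53 CPM and SLC51B at 3.34 ± 0.37 against 5.46 ± 0.38 CPM (SD, n = 3).

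Lysosome and autophagy genes were higher in 3 of 27 and lower in 6, beside 7.54% and 9.03% of all genes. NEU1, the lysosomal sialidase, had 455, 474 and 483 against 322, 343 and 314 CPM (log2 0.53 ± 0.046), while CTSB, the protease cathepsin B, was lower at 304 ± 2.5 against 425 ± 8.0 CPM (SD, n = 3). Among other lists, higher and lower counts were 5 and 1 of 15 for beta-catenin targets, where BMP4, a growth factor, was lower at 111 ± 1.5 against 176 ± 5.9 CPM and NKD1, a feedback inhibitor, higher at 513 ± 7.5 against 395 ± 6.3 CPM. They were 3 and 5 of 19 for immediate early genes, 3 and 2 of 18 for insulin-repressed FOXO genes, 2 and 2 of 20 for p53 targets and 3 and 1 of 18 for apoptosis regulators. Without Polygalae Radix replicate 3 the count of higher immediate early genes was 1, and lower p53 targets counted 1 when any of the 6 libraries but Aucklandiae Radix replicate 1 was left out. IGFBP1, the insulin-repressed binding protein, ranged from 68.0 to 128 CPM with Polygalae Radix and from 79.2 to 135 CPM with Aucklandiae Radix, against 22.1 to 27.3 CPM with the vehicle. TXNIP was higher (43.3, 37.5 and 32.2 against 33.8, 25.1 and 23.7 CPM, ranges that overlap; log2 0.45 ± 0.092), and CDKN1A, the p21 inhibitor of the cell cycle, lower (72.6, 85.7 and 83.4 against 90.5, 109 and 104 CPM; log2 -0.33 ± 0.080). Drug metabolism genes of PXR and CAR counted 2 higher and 1 lower of 11, amino acid transporters 1 and 3 of 18, urea cycle genes 0 and 3 of 14, interferon genes 1 and 2 of 14, and cholesterol efflux genes 0 and 2 of 9. Higher interferon genes counted 0 by edgeR without Polygalae Radix replicate 1 or Aucklandiae Radix replicate 2 or 3, and 0 by DESeq2. SLC6A14, an amino acid transporter, was at 32.6 ± 1.3 against 17.1 ± 1.7 CPM (SD, n = 3). Cytosolic ribosomal protein genes, 21 tested, had 0 calls by edgeR, 0 at an unadjusted p under 0.05 and 0 by DESeq2. When the 6 libraries were fitted alone, 2 were higher (RPS6 and RPS3, edgeR adjusted p = 0.028 and 0.025). Ribosome biogenesis genes, also 21, had 0 calls by edgeR, 3 at an unadjusted p under 0.05 and 1 by DESeq2, all lower. BOP1 (edgeR adjusted p = 0.051) was lower with RLE scaling, no filter and a stricter filter (edgeR adjusted p = 0.046, 0.00495 and 0.043). When the 6 libraries were fitted alone, BOP1, PES1, RRP12 and FBL were lower (edgeR adjusted p = 8.1e-05, 0.018, 0.0027 and 0.0067). With GC slope and structured RNA share as covariates, 1 member was higher and 2 lower.

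**Figure D4:**
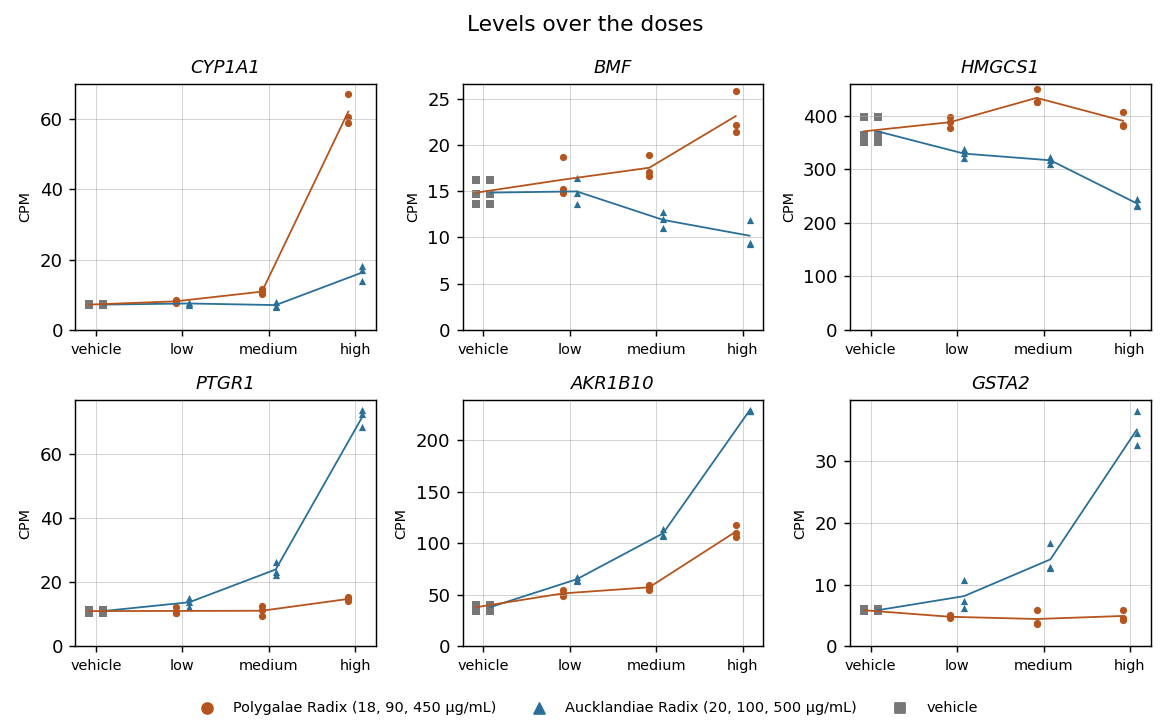
CPM per library (points) and group mean (line) of 6 genes with the vehicle, the low, the medium and the high dose; the vertical axes start at 0 and differ between panels, and doses are spaced evenly for display. CYP1A1 with Polygalae Radix is at 8.12 CPM at the low, 10.9 at the medium and 62.1 at the high dose, and PTGR1 with Aucklandiae Radix at 13.8, 24.1 and 71.7 CPM.

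Whether the difference between the extracts changed from the low to the high doses, in either direction, was tested as a difference of dose responses, the high minus the low dose of Polygalae Radix minus the same for Aucklandiae Radix. It passed for 1126 genes (6.82%), with 435 positive (2.63%) and 691 negative (4.18%) by edgeR. Of the 10 genes with the largest differences, 5 in each direction, 9 passed; they were chosen by the high dose libraries that also enter this contrast, so their number is a description. CYP1A1 had a mean of 8.12 ± 0.48 CPM at 18 µg/mL, 10.9 ± 0.71 at 90 and 62.1 ± 4.4 at 450 µg/mL of Polygalae Radix, and 7.52 ± 0.27, 7.06 ± 0.69 and 16.3 ± 2.2 CPM at 20, 100 and 500 µg/mL of Aucklandiae Radix (SD, n = 3). PTGR1 was at 11.1 ± 0.97, 11.2 ± 1.6 and 14.9 ± 0.57 CPM over the doses of Polygalae Radix, and at 13.8 ± 1.4, 24.1 ± 2.2 and 71.7 ± 2.7 CPM over those of Aucklandiae Radix. GSTA2 stayed at 4.80 ± 0.25, 4.44 ± 1.2 and 4.93 ± 0.85 CPM with Polygalae Radix and stood at 8.14 ± 2.4, 14.1 ± 2.3 and 35.1 ± 2.8 CPM with Aucklandiae Radix. SULT1C2 and GDPD3 followed another course: SULT1C2 had 12.0 ± 0.45 CPM already at the low dose of Polygalae Radix and 11.4 ± 0.32 at the high dose, and its difference of dose responses did not pass (log2 0.33 ± 0.12, edgeR adjusted p = 0.092). GDPD3 had 12.6 ± 1.4 CPM at the low and 12.7 ± 0.20 at the high dose of Polygalae Radix, against 7.95 ± 0.51 and 5.6 ± 0.25 CPM of Aucklandiae Radix.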

How the data were processed

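Per the labels' protocols, libraries were made from RNA of integrity number over 7 with a stranded mRNA kit and sequenced as pairs of 100 bases. Expected counts per gene (estimated reads, 10.32% of them not whole) were deposited by the authors as 1 table with 60 columns and were rounded before testing. Tools listed in the submitters' processing notes are STAR 2.7.3a, RSEM 1.3.3, FastQC 0.11.9 and Trim Galore 0.6.5, with hg38 and GRCh38 as builds. For the annotation release and strand setting, nothing is given in the sources used here. Of 60675 genes, 57055 were found in GENCODE 29, which gives the coordinates; promoters are from RefSeq.

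Groups of 3 came from the titles. The filter filterByExpr kept 16517 genes (the others had 0.0532% of counts). After TMM scaling (factors 0.92 to 1.08), 1 quasi-likelihood model with 20 group terms was fitted to all 60 libraries in edgeR 4.0.16 (R 4.3.3, limma 3.58.1). Contrasts were 2-sided with Benjamini-Hochberg adjustment. Totals ran from 20.21 to 36.41 M counts per library. The test was checked on simulated counts of these groups. Alternatives were RLE scaling, no filter or a stricter one, DESeq2 1.42.0, replicate blocks, fits of fewer libraries and the omission of each library. Covariates were added after the data were seen. So was the omission together of vehicle replicate 1 and, at the low doses, Aucklandiae Radix replicate 1 and Polygalae Radix replicate 2.

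Named genes are the 10 largest differences each way with an adjusted p under 0.05, at least 5 CPM in a group mean, no overlap of libraries and a protein-coding type, the 4 members of a list with the smallest p, and a panel of 20. A few genes that this rule names are not reported here. The comparison and the 38 gene lists were chosen with earlier results of these data known. The labels do not say that replicates were separate cultures, so p-values then describe only how far these libraries scatter, possibly for technical reasons.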

Additional observations from a re-analysis of the deposited data

Results flagged for a closer look

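A closer look is due to 9 of the 10 genes with the largest differences, because their responses from the low to the high dose differed between the extracts by edgeR's test of that difference. The 10 genes were chosen for their differences at the high doses, whose libraries enter this test too, so the count of 9 supports nothing further. The log2 values, Polygalae Radix minus Aucklandiae Radix, were 1.82 for CYP1A1, 1.35 for MBL2, 1.08 for BMF and 0.53 for GDPD3. They were -2.07 for GSTA2, -1.95 for PTGR1, -1.64 for SLC5A11, -1.37 for GSTA1 and -1.33 for AKR1C2. For CYP1A1 the response of Polygalae Radix was the larger one, and for GSTA2, PTGR1, SLC5A11, GSTA1 and AKR1C2 that of Aucklandiae Radix. MBL2 and BMF were higher at the high than at the low dose of Polygalae Radix and lower at the high than at the low dose of Aucklandiae Radix. The value of GDPD3 lost its call under 10 of the alternatives, with an edgeR adjusted p of up to 0.162, and those of the other eight kept theirs. Low dose libraries that stand apart from their group, replicate 1 of Aucklandiae Radix and replicate 2 of Polygalae Radix, enter these values, and without them and vehicle replicate 1 that of GDPD3 was 0.44.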

How the results depend on the processing

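The 2737 genes called between the extracts became 4148 when the 6 libraries were fitted alone, where the cause was not tested, and 2082 to 2227 when single libraries were left out. The number called for Polygalae Radix against the vehicle, 3326, was 2187 without vehicle replicate 1, a library of unusual GC slope, and 2187 to 2974 over all omissions. The difference of dose responses passed for 855 to 1070 genes and Aucklandiae Radix against the vehicle for 3163 to 3937 under these omissions. Same-numbered libraries of the extracts had deviations that correlated at 0.265, 0.284 and -0.19. Crossed pairs of replicates 1 and 2 correlated at -0.344 and -0.359, and the other crossed pairs at 0.017 to 0.175. What the replicate numbers share is not stated, and the main fit does not pair them. A replicate block gave 2762 calls over all libraries, against 2737 without it. Within the code set it gave 2497, against 2250 without it. Among 156 named genes called, 131 kept their call under every alternative, 25 lost it in at least 1, and 0 changed direction. With no filter on low counts, 6 named genes gained a call and 9 lost it. MT2A, FTL and XBP1 gained theirs at log2 differences of 0.54, -0.28 and 0.19, close to the main fit. Those p-values reflect another estimate of the spread. Uncalled values near 0 changed sign: IGFBP1 from -0.04 to 0.26 without Aucklandiae Radix replicate 1, 0.16 without Polygalae Radix replicate 2, -0.31 without Polygalae Radix replicate 1 and 0.026 with GC slope and structured RNA as covariates. MT-ND5 went from -0.08 to 0.0049 without Aucklandiae Radix replicate 3, -0.20 without Polygalae Radix replicate 2 and 0.16 with the covariates, and MT-CO2 from -0.14 to 0.13 with the covariates. In the fit with those covariates 20 NRF2 and 13 chaperone genes were lower, and 23 cholesterol and 9 fatty acid genes higher. Genes of about 1 CPM, such as ALDH3A1, rest on few reads at this depth.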
